A study of Mus musculus with 12 samples.

Results

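Mouse chromosome 12 carries a cluster of genes that resemble Eif1a, and 7 of them (Gm8300, Gm4027, BB287469, Gm2016, Gm8332, Gm5662 and Gm5039) were followed here across cells with 2-cell embryo features and cells without them. The 7 genes were chosen by name, with their high counts in TPS cells and low counts in EPS cells already known, so the difference between these cell types is described below and not tested for them. They are 7 of the 55401 genes in the count tables. RNA-seq was done on totipotent potential stem (TPS) cells and extended pluripotent stem (EPS) cells of the mouse, with 3 lines of each and 2 technical replicates per line, which gave 12 libraries. TPS cells were grown on feeder cells in the medium that the labels call VCED and the study calls CPEC, a mix of VPA (which inhibits histone deacetylases), EPZ004777 (which inhibits DOT1L), CD1530 (a RARγ agonist) and a compound that blocks GSK3. EPS cells were grown on feeder cells in LCDM medium, and no genetic change is given for either group. Neither the mouse strain nor the origin of each TPS line, an EPS line or an embryo, is given in the labels.

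eIF1A is a small translation initiation factor that binds the small ribosomal subunit and, together with eIF1, helps the scanning complex to find the start codon. In the mouse, Eif1a and Eif1ax encode this factor in most cells. The chromosome 12 cluster holds many further copies, which are known as genes switched on at zygotic genome activation in the 2-cell embryo and in the rare 2-cell-like cells of embryonic stem cell cultures. DUX, a homeodomain factor of the early embryo, is known to bind and activate many genes of that stage.

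In GENCODE M21 on build GRCm38, Gm8300 (chr12:87514316-87518266), Gm4027 (chr12:87618869-87622955), BB287469 (chr12:87816577-87820676) and Gm2016 (chr12:87874072-87877859) lie on the plus strand. Gm8332 (chr12:88249666-88250100), Gm5662 (chr12:88270640-88274500) and Gm5039 (chr12:88320122-88324026) follow on the minus strand. All 7 are annotated as protein-coding with a coding region of 435 bases, or 144 codons before the stop, which is also the length of the coding region in Eif1a and Eif1ax. The models of 6 members have 2 exons and between 1766 and 1873 bases, with the whole opening of the coding region inside 1 exon. The model of Gm8332 is a single exon of 435 bases with no untranslated region, so its counts come from reads placed at least in part on the coding region. Whether reads that reach past this short model raise its level per kb was not tested.

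The opening of the coding region shows how close the copies are. It is given as the first 120 coding bases, 5′ to 3′, in lower case, and capitals mark each base that differs from Gm5662. Gm8332 had the same 120 bases as Gm5662, and BB287469 and Gm2016 had the same 120 bases as Gm4027, so one of each is shown. The copies lie at chr12:88271869-88271988 on the minus strand (Gm5662), chr12:87516897-87517016 on the plus strand (Gm8300), chr12:87621600-87621719 on the plus strand (Gm4027) and chr12:88321362-88321481 on the minus strand (Gm5039). Eif1ax, from the X chromosome and with these bases spread over several exons, is the relative outside the cluster.
Gm5662: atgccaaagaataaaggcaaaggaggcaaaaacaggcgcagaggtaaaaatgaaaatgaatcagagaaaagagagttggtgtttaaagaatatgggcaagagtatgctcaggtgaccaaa
Gm8300: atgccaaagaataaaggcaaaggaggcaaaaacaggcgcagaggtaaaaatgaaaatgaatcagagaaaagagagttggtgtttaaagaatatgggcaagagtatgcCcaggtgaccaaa
Gm4027: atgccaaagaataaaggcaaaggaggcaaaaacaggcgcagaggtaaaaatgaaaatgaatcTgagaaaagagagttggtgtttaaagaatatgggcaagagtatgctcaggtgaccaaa
Gm5039: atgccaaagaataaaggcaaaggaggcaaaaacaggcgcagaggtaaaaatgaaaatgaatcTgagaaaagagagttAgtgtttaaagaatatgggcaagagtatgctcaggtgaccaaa
Eif1ax: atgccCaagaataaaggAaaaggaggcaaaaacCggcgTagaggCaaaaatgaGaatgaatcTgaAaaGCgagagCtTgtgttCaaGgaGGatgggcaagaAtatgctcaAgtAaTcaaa
Within this stretch no member differed from Gm5662 at more than 2 bases, whereas Eif1ax differed at 20.

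Over the whole coding region the members were between 97.0% and 100% identical to each other, with a median of 97.7% over the 21 pairs. Their identity to Eif1a was between 93.6% and 94.9%, and to Eif1ax between 83.7% and 85.1%. Translated in full, the members were between 91.7% and 95.1% identical to the Eif1a protein, while their identity to the products of Eif1 and Eif1b, which are a separate initiation factor, did not pass 16.6%. Gm4027 and BB287469 had the same coding region, and their whole transcripts were 99.8% identical.

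This likeness bears on every count that follows, because a read of 100 bases can fit several copies and the handling of such reads is not given in the sources used here. Of all 100-base windows in the transcript, 96.2% were found in no other annotated transcript for Gm5039 and 89.2% for Gm8300. The genome itself was not searched, and Gm8332 and several other copies, such as Gm2022, have models of only 435 bases. These shares are therefore upper limits. The share was 41.6% for Gm5662 and 35.3% for Gm2016, which share with each other more windows than with any other gene. It was only 8.68% for BB287469 and 8.62% for Gm4027, and 0% for Gm8332, none of whose 336 windows was its own. Counts of Gm5039 and Gm8300 can thus be placed with the least doubt, counts of Gm4027 and BB287469 could have been split between the pair or given to both, and the counts of Gm8332 have no read-length stretch that belongs to it alone.

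The region before the start was available for 2 of the 7 members, Gm4027 and BB287469, and for 4 other copies of the cluster, in the RefSeq table of build GRCm38.p6. It is shown for the members and for Gm21319, a copy outside the 7, because these 3 hold the same letters of a DUX-type motif. Sequences run 5′ to 3′ on the strand of the gene up to the last base before the GENCODE start, in lower case. Capitals mark the 11 bases that match DUX-type letters on the opposite strand, TAAT and AATCA with 2 free bases between them, and, nearer the start, the 8 bases TATATATA. They cover chr12:87816327-87816576 (BB287469, plus strand), chr12:87618659-87618868 (Gm4027, plus strand) and chr12:87775756-87776005 (Gm21319, minus strand).
BB287469: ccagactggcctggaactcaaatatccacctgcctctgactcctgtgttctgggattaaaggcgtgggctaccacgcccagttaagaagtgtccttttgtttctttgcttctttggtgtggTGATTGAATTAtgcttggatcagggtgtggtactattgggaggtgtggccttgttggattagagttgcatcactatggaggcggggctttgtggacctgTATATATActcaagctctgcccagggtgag
Gm4027: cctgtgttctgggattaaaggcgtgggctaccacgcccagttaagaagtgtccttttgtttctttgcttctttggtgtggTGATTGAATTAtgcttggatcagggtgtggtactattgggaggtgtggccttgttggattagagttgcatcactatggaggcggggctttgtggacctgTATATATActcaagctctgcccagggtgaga
Gm21319: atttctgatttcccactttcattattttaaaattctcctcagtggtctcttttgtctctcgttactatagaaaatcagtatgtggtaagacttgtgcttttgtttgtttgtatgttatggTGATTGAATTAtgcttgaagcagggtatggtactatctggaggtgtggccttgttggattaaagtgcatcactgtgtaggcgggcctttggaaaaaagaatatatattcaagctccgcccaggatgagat
The stretches of BB287469 and Gm4027 were 99.0% identical when aligned, and that of Gm21319 was 65.8% identical to BB287469.

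The DUX-type match began 129 bases before the GENCODE start in BB287469 and 130 bases before it in Gm4027 and in Gm21319. The TATATATA match began 30 bases before the start in BB287469 and 31 bases before it in Gm4027, whose RefSeq start lies 40 bases further downstream. The letters were looked for on both strands in windows of 300 bases, from 250 before to 50 after the RefSeq start, and were chosen after these windows had been seen. The DUX-type letters were in 3 of the 6 windows of members and copies and in 115 of all 32851 RefSeq windows, which is 0.35%. TATATATA was in 2 of the 6 windows and in 0.819% of all. The palindromic form, TGATT and AATCA with 1 free base between them, was in none of the 6 and in 0.0335% of all windows. A retinoid-type direct repeat, GGTCA and AGGTCA with 5 free bases between them, was in none of the 6 and in 0.0548% of all. Such a match is a description of letters and was not tested as a binding site. Which of the DUX-type forms the mouse protein prefers was not examined here, so no site of mouse DUX is claimed.

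Library totals lay between 13676051 and 21821707 counts, with a median of 16774687 in TPS and 17766030 in EPS libraries, and both technical replicates of each line were added up. Levels are given as CPM, which divides the counts of a gene by the library total after TMM scaling in edgeR. The label of the cells was checked against marker genes. All 8 pluripotency markers were counted in both groups, with summed levels between 2031 and 2374 CPM in TPS lines and between 4148 and 5090 CPM in EPS lines. By edgeR's test 4 of the 8 (50%) were called lower in TPS lines, against 7.34% of all tested genes. The 16 fibroblast markers, which feeder cells would bring, were all above 0 in both groups and summed to 6035, 3411 and 3487 CPM in TPS lines 1 to 3 and to 327, 1277 and 1355 CPM in EPS lines 1 to 3. Of these 16 genes, 11 were called higher in TPS lines by edgeR's test, against 14.4% of all tested genes, and their part in the results on the cluster was not tested. In EPS lines 2 and 3, with fibroblast sums of 1277 and 1355 CPM, the 7 members together were at 0.441 and 0.313 CPM. In bulk RNA, fewer cells with a transcript and less of it per cell cannot be told apart.

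The 7 members together were at 200.7, 184 and 211 CPM in TPS lines 1 to 3 and at 0.489, 0.441 and 0.313 CPM in EPS lines 1 to 3. This is 199 ± 13.5 CPM in TPS cells (mean ± SD, n = 3 lines) and 0.414 ± 0.0912 CPM in EPS cells. The groups lay far apart and the TPS lines lay close together, with a coefficient of variation of 6.81% for the sum. Counted over all lines, the sum was 21817 counts in TPS cells and 41 in EPS cells, a ratio of 482 per unit of depth (95% exact counting interval 355 to 672). Such intervals cover counting error only, since the reads carry no molecular identifiers and several can stem from 1 molecule. The 7 genes took between 0.0188% and 0.0233% of all counts in a TPS library.

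**Figure D1:**
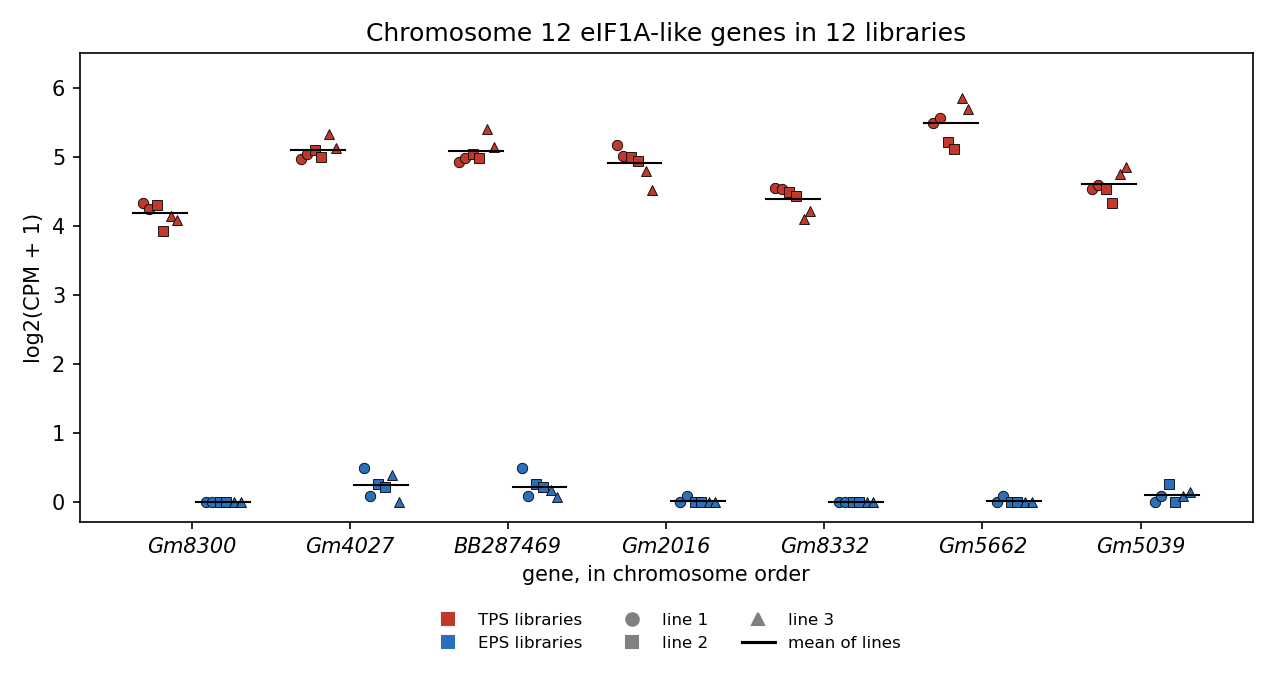
Level of each member, as log2(CPM + 1), in the 12 libraries, with genes in chromosome order. Red symbols are TPS libraries, blue symbols are EPS libraries, the symbol shape gives the line, and black bars are means over 3 lines. Each member was at 14.2 CPM or more in every TPS library, and the EPS libraries of all members stayed near 0.

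Gm5662, the member with the most counts, was at 44.8, 34.5 and 53.5 CPM in TPS lines 1 to 3, and its only EPS count was in 1 library of line 1. Pooled over lines this was 4813 counts against 1, a ratio of 4361 whose counting interval runs from 782 to 172271 because it rests on that single count. Gm2016 was at 32.6, 30.01 and 24.1 CPM in TPS lines 1 to 3, and it too had 1 EPS count, in the same library. Its ratio was 2918, with an interval from 523 to 115301. Both genes were thus at 0 in 5 of 6 EPS libraries, while TPS line 3 was the highest line for Gm5662 and the lowest for Gm2016.

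Gm8300 and Gm8332 had no count in any EPS library. Gm8300 was at 18.3, 16.2 and 16.2 CPM in TPS lines 1 to 3, and Gm8332 at 22.0, 20.8 and 16.7 CPM. Set against a floor of 3 counts over all EPS libraries together, with the TPS counts pooled over lines and both taken per unit of depth, Gm8300 was at least 564.7-fold and Gm8332 at least 668.3-fold higher in TPS cells. For Gm8300, with 89.2% of its windows found in no other transcript, the 3 TPS lines agreed most closely among the members, with a coefficient of variation of 7.24%.

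The other 3 members had a few counts in EPS cells. Gm4027 was at 30.9, 31.7 and 36.3 CPM in TPS lines 1 to 3 and at 0.196, 0.176 and 0.142 CPM in EPS lines 1 to 3, a ratio of 192 (interval 120 to 330). BB287469 was at 29.7, 30.8 and 37.5 CPM in TPS lines and at 0.196, 0.176 and 0.0853 CPM in EPS lines, a ratio of 215 (130 to 384). These nearly identical genes held 32 of the 41 EPS counts of the whole set, and their EPS counts were equal in 4 of the 6 libraries. In the TPS libraries the count of Gm4027 was between 0.949 and 1.05 times that of BB287469, and equal in none of the 6. Whether the same reads were counted for both was not tested.

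Gm5039 was at 22.5, 20.3 and 26.9 CPM in TPS lines 1 to 3 and at 0.0326, 0.0882 and 0.0853 CPM in EPS lines 1 to 3, with 7 EPS counts in 4 libraries. Its ratio was 328 (159 to 816). Nearly all of its windows were found in no other annotated transcript, but 7 counts in 6 libraries leave its EPS level poorly known. All 7 members were among the 17468 genes tested by edgeR's quasi-likelihood test, which they entered through their TPS counts alone. Of all tested genes 14.4% were called higher in TPS lines, and nothing is read from the calls of the members, since the contrast that chose them is the same.

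Per kb of exon, the levels of the members in TPS cells were ordered as follows. Gm8332 stood at 45.6 ± 6.36 CPM per kb (n = 3 lines), on a model that holds the coding region alone. Gm5662 followed at 24.1 ± 5.18, then Gm4027 at 17.8 ± 1.58, BB287469 at 17.6 ± 2.30 and Gm2016 at 16.4 ± 2.47 CPM per kb. Gm5039, at 12.5 ± 1.79, and Gm8300, at 9.03 ± 0.654 CPM per kb, were lowest. Gm4027, BB287469 and Gm2016 did not differ beyond their spread over lines. Without Gm8332, whose model is short, the members together were at 97.4 ± 8.32 CPM per kb.

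The make-up of the set, the share of each member in the summed counts of the 7, was not used to choose the genes. It does not move with the scaling of libraries but does move with gene length. Gm5662 held 22.3% (95% exact binomial interval 21.4% to 23.3%), 18.7% (17.8% to 19.6%) and 25.3% (24.3% to 26.4%) of the sum in TPS lines 1 to 3. Gm2016 held 16.2% (15.4% to 17.0%), 16.3% (15.4% to 17.1%) and 11.4% (10.6% to 12.2%). Gm8332 held 10.96% (10.3% to 11.7%), 11.3% (10.6% to 12.1%) and 7.92% (7.28% to 8.60%). TPS line 3 thus had a larger share of Gm5662 and smaller shares of Gm2016 and Gm8332 than lines 1 and 2, by more than counting error.

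The other members varied less. Gm4027 held 15.4%, 17.2% and 17.2% of the sum in TPS lines 1 to 3, and BB287469 held 14.8%, 16.7% and 17.8%. Gm5039 held 11.2%, 11.04% and 12.7%, and Gm8300 9.13%, 8.78% and 7.68%. When counts were first divided by the exon length, Gm8332 went from a mean share of 10.06% to 31.9% ± 4.58 (n = 3 lines), the largest of the 7, and Gm5662 went from 22.1% to 16.8% ± 3.26. The mean shares of the other 5 then lay between 6.31% for Gm8300 and 12.5% for Gm4027. Over the 7 genes the chi-square per degree of freedom was 20.03 between the 3 TPS lines (12 degrees of freedom), against 1.20, 1.30 and 2.58 between the technical replicates of lines 1 to 3 (6 degrees of freedom each). Technical replicates share the RNA of 1 line, so the smaller values cover library and counting noise and not the variation among cultures.

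**Figure D2:**
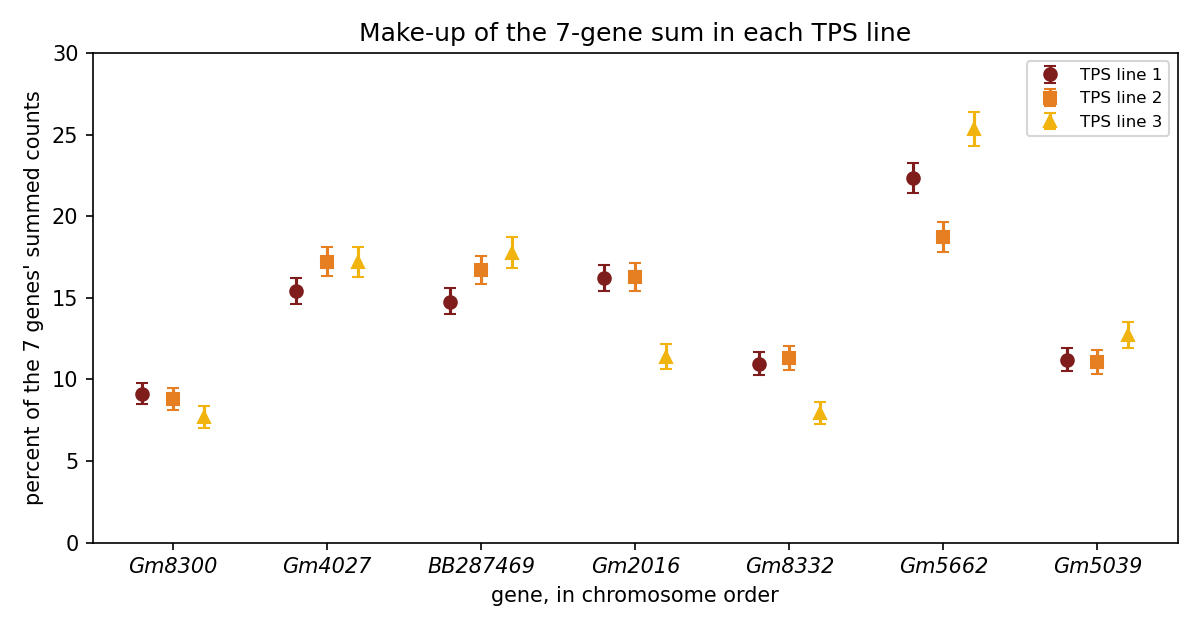
Share of each member in the summed counts of the 7 genes, in percent, for the 3 TPS lines, with bars for the 95% exact binomial interval, which covers counting error only. In line 3 the share of Gm2016 was 11.4% against 16.2% and 16.3% in lines 1 and 2.

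Between technical replicates, the CPM of a member changed by a log2 ratio between -0.39 and 0.12, with a median size of 0.10. The widest gap was that of Gm8300 in TPS line 2, with 18.7 and 14.2 CPM. The shares of the members given above come from the lines, in which the technical replicates are summed.

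The members are not the only eIF1A-like genes of the cluster. A window of 1 Mb around it, with Alkbh1 and Adck1 near its ends, holds 89 other annotated genes. By blastn, 12 of these were copies, with at least 80% identity over at least 50% of the longest transcript of any member. As the transcript of Gm8332 is its coding region alone, a copy of the coding region was enough. Against the coding region of their closest member, the 12 were between 96.2% and 99.1% identical over 52.6% to 100% of its length. None had more than 2 counts in EPS cells, so the 10 that passed the filter on low counts did so through their TPS counts alone, and their reads can be shared with the members. Nothing is therefore read from their calls. The 12 copies summed to 26.6, 26.0 and 35.4 CPM in TPS lines 1 to 3 and to 0, 0.0294 and 0.0569 CPM in EPS lines 1 to 3. The 7 members thus held 87.2% ± 1.37 (n = 3 lines) of the CPM of all 19 copies in TPS cells.

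In CPM, the highest of the other copies stayed below the lowest member. This order did not hold per kb of exon, where Gm2022, at 13.0 ± 4.33 CPM per kb in TPS lines, stood above Gm5039 and Gm8300, and Gm6803, at 9.10 ± 4.50 CPM per kb, lay just above Gm8300. These differences were within the spread over lines, and the models of Gm2022 and Gm6803 hold 435 bases. Gm21319 was at 4.34, 3.60 and 10.6 CPM in TPS lines 1 to 3, with no EPS count, and by pooled counts was at least 195.4-fold higher against the floor of 3 counts. Gm2022, close to Gm2016, was at 6.89, 6.60 and 3.49 CPM in TPS lines, also with no EPS count, and by pooled counts at least 193.6-fold higher. Gm6803 was at 2.15, 3.70 and 6.03 CPM. Gm2035, Gm2075, Gm2056, Gm21936, Gm8607 and Gm5788 had means between 1.78 and 2.48 CPM in TPS lines, and Gm48389 had 0.610 CPM. Gm16368 (40 TPS counts) and Gm10264 (2 TPS counts) did not pass the filter on low counts.

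Of the 77 other annotated genes of the window, 24 had no count in any library. Another 31 had counts, often only a few, in TPS cells and none in EPS cells. Only 6 of the 77 passed the filter on low counts. Among those that did not, the processed pseudogene Gm1995 had 373 TPS counts and no EPS count. The processed pseudogene Gm18983 was at 5.37, 6.71 and 8.03 CPM in TPS lines 1 to 3 with no EPS count, and Gm21939, another, at 6.69, 7.22 and 19.2 CPM with 2 EPS counts. Both passed the filter through their TPS counts alone, and nothing is read from their calls. Of the genes that flank the cluster, Alkbh1, Snw1 and Adck1 were expressed in both cell types, while Slirp had 4 TPS counts and 2 EPS counts. Slirp lies on the plus strand and overlaps both Alkbh1 and Snw1, which lie on the minus strand. Whether reads in these overlaps were left uncounted was not tested. Snw1, a splicing factor, was at 51.9 ± 4.21 CPM in TPS lines and had a log2 fold change of -0.14 ± 0.14 (SE, adjusted p = 0.496). Adck1, a mitochondrial kinase-like gene, had a log2 fold change of -0.13 ± 0.25 (adjusted p = 0.738). Alkbh1, a nucleic acid demethylase, was called lower, at a log2 fold change of -0.65 ± 0.16 (adjusted p = 0.0288). The call was lost when any line other than EPS line 1 was left out (adjusted p up to 0.0908). It was also lost with libraries scaled by their totals alone and with line number as a replicate block. Under the 14 alternatives its log2 fold change lay between -0.78 and -0.50.

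**Figure D3:**
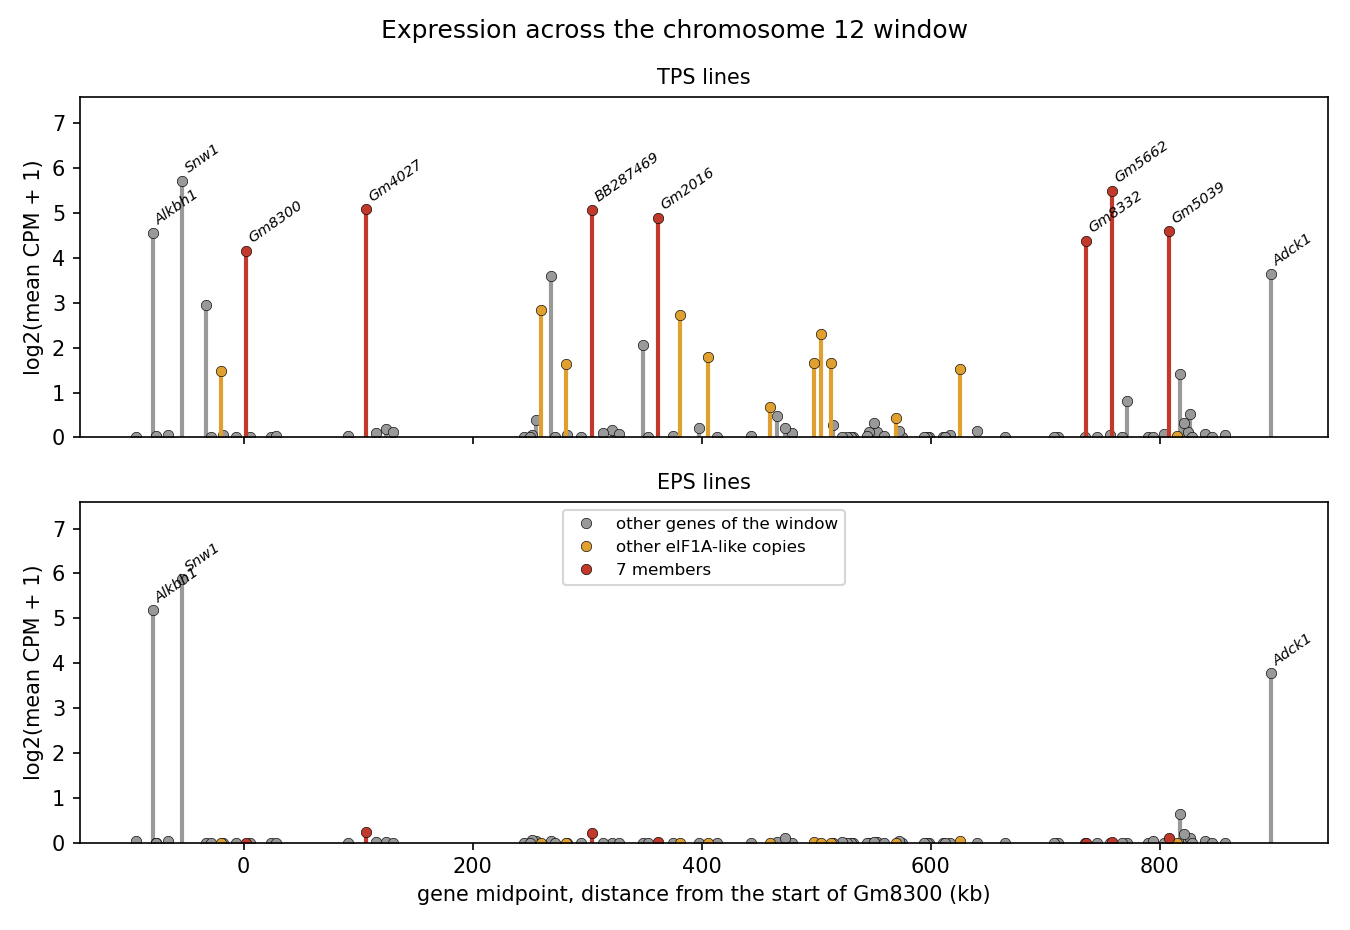
Mean level, as log2(mean CPM + 1), of every gene of the window against its distance from the start of Gm8300 in kb, in TPS lines (top) and EPS lines (bottom). Red marks the 7 members, orange the 12 other eIF1A-like copies and grey the 77 other genes. The members stand at 16.9 CPM or more in TPS lines and near 0 in EPS lines, while Alkbh1, Snw1 and Adck1 at the flanks are expressed in both.

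Along the window, the TPS lines differed in which copies were high. Gm21319, Gm21939 and Gm21936, which lie between Gm4027 and BB287469, were each highest in TPS line 3, where they stood at 1.72, 1.74 and 1.60 times their mean over the 3 lines. BB287469, further along, was at 1.15 times its mean in that line. Gm2016, Gm2022 and Gm2035, which come after BB287469, were each lowest in line 3, at 0.833, 0.617 and 0.729 times their means. Still further along the pattern was mixed. Gm6803, Gm8607 and Gm5662 were highest in line 3, at 1.52, 1.41 and 1.21 times their means, and Gm8332 was lowest there, at 0.843 times its mean. Of 21 eIF1A-like copies and processed pseudogenes with at least 50 TPS counts and over 10 times as many TPS as EPS counts, 12 were highest in line 3 and 6 were lowest there. Between lines, the members differed by 1.13 to 1.55 times from the lowest to the highest line, and the other copies by 1.13 to 2.95 times.

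**Figure D4:**
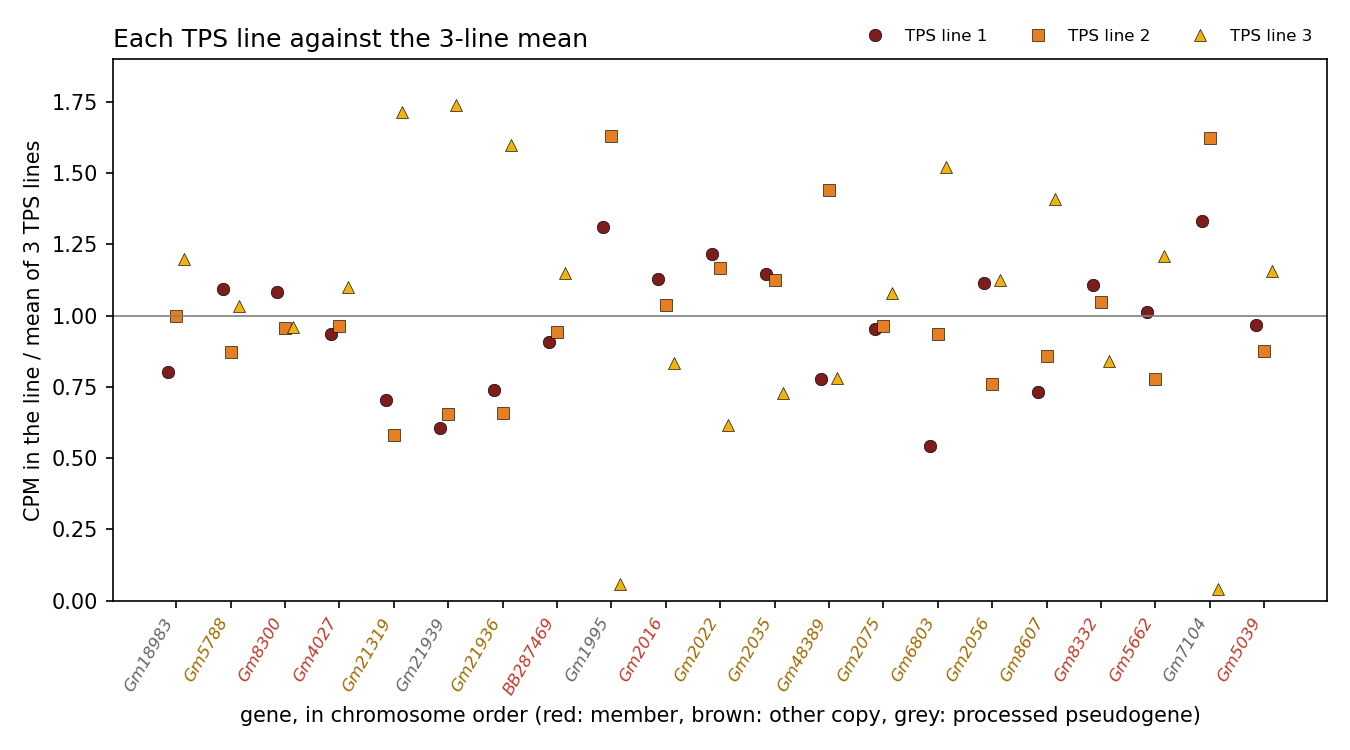
CPM of each gene in each TPS line divided by its mean over the 3 TPS lines, for 21 genes of the window in chromosome order. Names of members are red, of other copies brown and of processed pseudogenes grey. Line 3 (triangles) is far above 1 for Gm21319, Gm21939 and Gm21936, at 0.833 and 0.843 for Gm2016 and Gm8332, and close to 0 for Gm1995 and Gm7104.

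The genes outside the cluster that encode eIF1A and related factors were expressed in both cell types. Eif1a was at 206 ± 15.7 CPM in TPS lines and 228 ± 8.62 CPM in EPS lines, with a log2 fold change of -0.15 ± 0.12 (adjusted p = 0.416). Eif1ax was at 161 ± 10.4 and 169 ± 26.5 CPM, with a log2 fold change of -0.07 ± 0.15 (adjusted p = 0.776). In the EPS lines, where Eif1a stood at 228 CPM, the 7 members together had 0.414 CPM.

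Eif1ad, which encodes a protein with an eIF1A-like domain, was at 47.0 ± 4.80 and 67.4 ± 16.2 CPM, with a log2 fold change of -0.52 ± 0.19 (adjusted p = 0.0950). Eif1 and Eif1b, which encode the partner factor eIF1, had log2 fold changes of -0.21 ± 0.18 (adjusted p = 0.442) and 0.07 ± 0.17 (adjusted p = 0.792). Over all tested genes the median log2 fold change was -0.0038. None of these 5 genes was called by edgeR or by DESeq2, and 1 of them, Eif1ad, had an unadjusted p under 0.05. A missed threshold does not show equal levels.

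Per kb of exon in TPS lines, the 6 members with full models together were at 97.4 CPM per kb. Eif1a was at 49.4 and Eif1ax at 30.6 CPM per kb, and this pair together at 79.98 CPM per kb. The exon length used for Eif1a was 4168 bases, against 2865 bases for the transcript that gave its coding region. A shorter length would raise its level. Whether the 6 members together stay above the pair with transcript lengths was not tested. No single one of these 6 members reached the level of Eif1ax. In EPS lines Eif1a and Eif1ax were at 54.6 and 32.1 CPM per kb, and the same 6 members together at 0.224 CPM per kb.

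**Figure D5:**
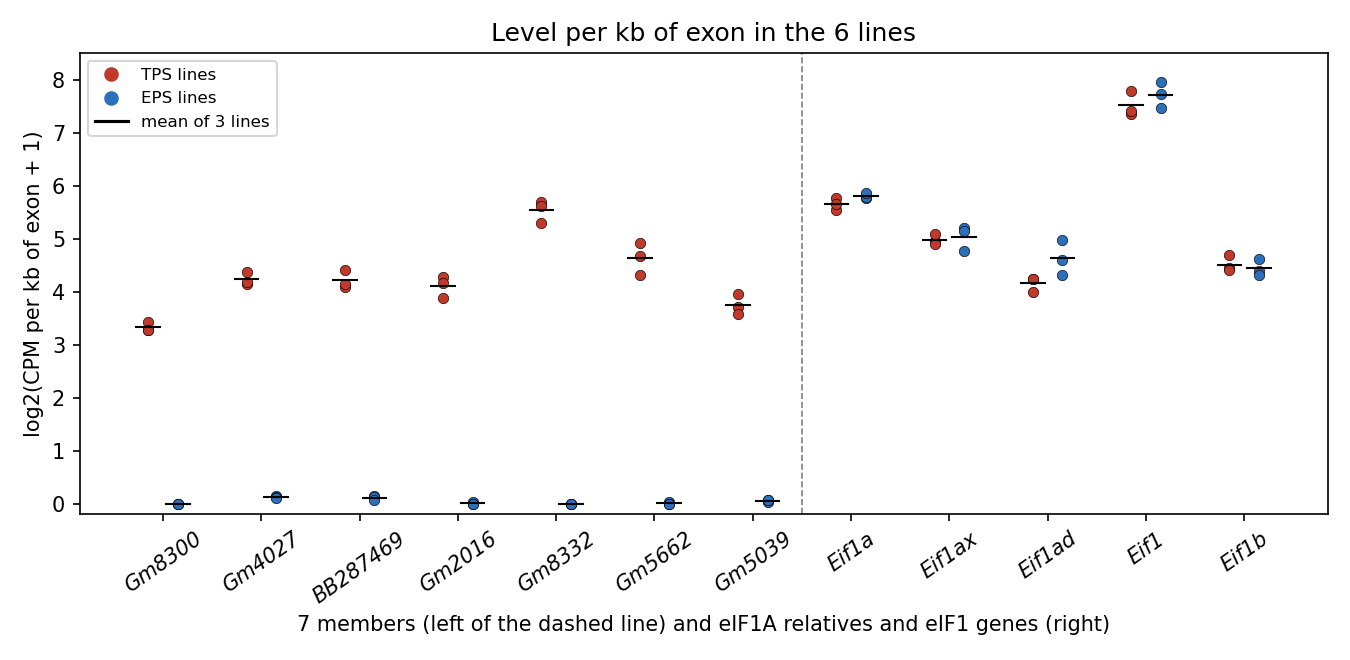
Level per kb of exon, as log2(CPM per kb + 1), of the 7 members and of Eif1a, Eif1ax, Eif1ad, Eif1 and Eif1b in the 3 TPS lines (red) and 3 EPS lines (blue), with black bars for the mean of 3 lines. The genes outside the cluster overlap or nearly overlap between cell types, while the members are near 0 in EPS lines.

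The rest of the initiation machinery was taken from lists of partners of the preinitiation complex, cap-binding and scanning factors, and factors of guanine exchange and reinitiation. With the 5 genes above these made 51 genes, of which 50 were tested. Only 1 was called higher and 2 were called lower in TPS lines, that is 2.00% and 4.00% of those tested, against 14.4% and 7.34% of all tested genes, and the median log2 fold change of the 50 was -0.19. Eif4e3, a cap-binding protein of the eIF4E family, was at 3.60 ± 0.807 CPM in TPS and 0.779 ± 0.226 CPM in EPS lines, a log2 fold change of 2.21 ± 0.38 (adjusted p = 0.00840), and it was called under all 14 alternatives. Eif3f, a subunit of the eIF3 complex, was at 309 ± 11.7 and 439 ± 66.3 CPM, a log2 fold change of -0.51 ± 0.14 (adjusted p = 0.0407). Mcts1, a reinitiation factor, was at 19.7 ± 1.37 and 30.9 ± 6.16 CPM, a log2 fold change of -0.65 ± 0.19 (adjusted p = 0.0429).

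The calls of Eif3f and Mcts1 did not hold. That of Eif3f was lost when any line other than EPS line 3 was left out (adjusted p up to 0.124), and that of Mcts1 when any line was left out (adjusted p up to 0.118). Both were also lost when libraries were scaled by their totals alone, which moved the median of all genes tested to 0.14 and that of the 50 initiation genes to -0.04. Upper quartile factors and the replicate block lost both calls too. Under the 14 alternatives the log2 fold change lay between -0.60 and -0.36 for Eif3f and between -0.75 and -0.50 for Mcts1. Eif4e1b, the oocyte form of the cap-binding protein, had 39 counts in TPS cells and none in EPS cells and was not tested.

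By the correlation of log2(CPM + 1) with the 7-gene sum over the 12 libraries, the 5 tested genes outside the set with the most similar pattern were Usp17ld, Zscan4c, Gm12800, Zscan4f and Zscan4-ps2. Their Pearson r lay between 0.9977 and 0.9984. As the libraries fall into a TPS and an EPS cluster, and the technical replicates of a line share their RNA, such values describe little more than that these genes are high in every TPS library and near 0 in every EPS library. Usp17ld, a deubiquitinase gene, was between 5.66 and 6.63 CPM in TPS libraries, and Gm12800 between 9.48 and 12.4 CPM, both with no EPS count. None of the 5 lies on chromosome 12.

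Zscan4 genes, which are markers of the 2-cell stage with a role in telomere maintenance, are the best known group that is high in the same libraries. The 6 copies Zscan4a to Zscan4f together were at 300.3, 346 and 448 CPM in TPS lines 1 to 3 and at 0.196, 0.147 and 0 CPM in EPS lines. The 7-gene sum was 0.668, 0.532 and 0.472 times the Zscan4 sum in TPS lines 1 to 3, so that both groups were highest in line 3 and the ratio was lowest there. The Tcstv genes together were at 3.89, 5.41 and 5.11 CPM in TPS lines. Of 11 activators and repressors of the 2-cell program, 3 (27.3%) were called higher and 1 (9.09%) lower in TPS lines, against 14.4% and 7.34% of all tested genes. Duxf3 and Zfp352, among those called higher, had no EPS count and passed the filter on low counts through their TPS counts alone. Nothing is read from the calls of Duxf3 and Zfp352, nor from the 27.3% that includes them. Duxf3, which is the mouse DUX gene, was at 4.84 ± 1.79 CPM in TPS lines. Dppa2, known to activate DUX, had a log2 fold change of 1.44 ± 0.28 (adjusted p = 0.0122), and its call was not examined under the alternatives. Dppa4, of the same list, was not called, at a log2 fold change of 0.025 ± 0.157 (adjusted p = 0.925). The gene called lower was Chaf1b, at -0.53 ± 0.13 (adjusted p = 0.0248).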

How the data were processed

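RNA enriched with oligo(dT) beads was sequenced as paired reads of 100 bases. Per the labels the authors used fastp 0.19.7 and STAR 2.7.3a on build GRCm38.p6 (mm10), and they deposited raw counts per gene. The counting tool, annotation release, use of strand and handling of reads with several hits are not given in the sources used here.

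Both technical replicates of each line were added up. Nothing says how independent the lines of a group are, so p-values measure the spread between these lines. Of 55401 gene IDs, 55141 matched GENCODE M21 with the version removed. The 7 members and the gene lists were chosen with earlier results of these data known. TPS and EPS lines were compared by edgeR's quasi-likelihood test (edgeR 4.0.16, R 4.3.3) with TMM factors, filterByExpr and Benjamini-Hochberg adjustment over 17468 genes at 0.05. The standard error is the size of the log2 fold change over the square root of F. Tested on simulated counts, 172 of 194 genes changed 4-fold were called, and 4 unchanged genes of all 17185 tested. Library totals of 13676051 to 21821707 counts set the precision. A floor of 3 counts was used where EPS cells had none.

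Named genes were the members, the eIF1A relatives, called initiation genes, copies and called genes of the window, the 5 genes most like the sum, Zscan4 and Tcstv genes, and markers by range. Snw1, Adck1, Slirp, Eif4e1b, Duxf3, Zfp352, Dppa2, Dppa4, Chaf1b, Gm1995 and Gm7104 were named outside this rule, after their values were seen. Copies were found with blastn 2.17.0, and identities were taken from global alignments (Biopython 1.88). Alternatives were DESeq2 1.42.0, other size factors, other filters on low counts, single technical replicates, 12 separate libraries, a replicate block and leaving out each line.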

Additional observations from a re-analysis of the deposited data

How the results depend on the processing

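The TPS mean of the 7-gene sum lay between 190.2 and 203 CPM when each TPS line was left out, stayed within 1 SD (13.5 CPM) of 199 CPM under other size factors or with either technical replicate alone, and was 228 CPM with the other copies of the window added. Whether line numbers pair the samples is not known. Deviations of lines with the same number correlated at 0.0240, -0.116 and 0.0423, but 3 lines per group cannot exclude a shared origin. The replicate block thus rests on a number alone. Under the replicate block 1714 genes were called higher and 721 lower, 1 initiation factor gene was called higher and 1 lower, and 12 neighbours were called higher. Genes called higher numbered 2509 in the main comparison, 4067 with 12 libraries as separate samples and 1617 to 2234 when a line was left out (1617 without TPS line 3, 1647 without EPS line 2). Genes called lower numbered 1282, and 750 with libraries scaled by their totals alone (2985 higher, or 79.9% of calls against 66.2%), 3610 with separate libraries and 493 to 1047 when a line was left out. Initiation factor genes called higher were 2 by DESeq2, 2 without the filter on low counts, 4 with separate libraries and 1 to 2 when a line was left out. Those called lower were 0 with totals alone, 0 with upper quartile factors, 20 with separate libraries and 0 to 1 when a line was left out. Neighbours called higher were 19 without the filter and 12 to 15 when a line was left out. The 12 called neighbours of the main comparison had 2 or fewer EPS counts each, so nothing is read from these calls. The cause of these changes was not tested. Of 163 alternative values, 128 stayed within 1 SD over lines of the main value (levels and shares) or within 1.5 times the main count (counts of calls), and 35 did not, among them the shares of all 7 members per kb of exon. Counts near 0 in EPS cells limit the ratios of Gm5662 and Gm2016 to a wide range, and Gm8300 and Gm8332 to lower bounds.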

Other observations

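The processed pseudogenes Gm1995 and Gm7104, picked after their values were seen, set TPS line 3 apart from lines 1 and 2. Gm1995, which lies before Gm2016 on the same strand, was at 4.17, 5.18 and 0.1905 CPM in TPS lines 1 to 3 and had no count in EPS cells. Gm7104, which lies between Gm5662 and Gm5039, was at 0.998, 1.22 and 0.0317 CPM in TPS lines 1 to 3, again with no EPS count. Both were near 0 in line 3, while Gm21939, another processed pseudogene of the window, was highest there at 19.2 CPM. Neither gene passed the filter on low counts, and neither was tested.

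Gm8332 received between 247 and 497 counts in every TPS library, although none of its 100-base windows is its own. How such reads were given to it was not tested.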
